A study of Homo sapiens with 4 samples.

Results

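The genes described here set or read histone acetylation, or belong to the corepressor complexes that remove it: deacetylases other than HDAC1 and HDAC2, sirtuins, acetyltransferases, the bromodomain readers BRD2 and BRD3, subunits of the NuRD complex, and genes of the SIN3 and NCOR corepressors. They were taken from a list of 44 gene symbols. A row of the count tables could be paired with 43 of these, and 42 had enough counts to be tested. The tables held 22851 symbols in all, of which 13251 were tested. MBD3 could not be paired with a row and was not analysed here. KAT2A had 0 counts in every library.

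The cells were PC-3M-luc, a luciferase-tagged line from a human prostate carcinoma that had spread and does not depend on androgen, grown in medium with serum. One group received control RNAi and the other RNAi against LSD1, and both were harvested 72 h after transfection. There were 2 libraries per group, labelled as biological replicates of 1 line. The rows used, 1 per gene, held 12041031 to 12831786 counts in each library, of 22855909 to 24348184 over all rows. The sources used here do not give the RNAi sequences. In such bulk RNA, fewer cells of a kind and less RNA per cell cannot be told apart.

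Acetyl groups on histone tails are added by acetyltransferases, bound by bromodomain proteins such as the BET family, and removed by zinc-dependent deacetylases and by sirtuins, which consume NAD. Many deacetylases act inside complexes. NuRD joins HDAC1 and HDAC2 to a nucleosome remodelling helicase, a methyl-CpG binding protein, MTA proteins and histone chaperones, SIN3 is a scaffold for the same pair, and NCOR works through HDAC3 with the TBL1 proteins. LSD1, the flavin-dependent histone demethylase encoded by KDM1A, is known to work beside HDAC1 and HDAC2 in CoREST and has also been found with NuRD.

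Levels are given in CPM (counts scaled to a common library size with TMM factors), and differences as knockdown over control. KDM1A, the target, had 2920 and 2892 counts in control and 218 and 234 counts in knockdown libraries, a log2 fold change of -3.72 (edgeR quasi-likelihood adjusted p = 2.98e-24). Between replicates the chi-square per tested gene was 4.96 in control and 4.28 in knockdown, where counting noise alone would give about 1. The line expressed epithelial and PC-3 associated markers, and some of these moved with the knockdown. CDH1 was 2.42-fold, EPCAM 1.42-fold and KRT8 1.39-fold higher, and VIM was at 0.796 of control, each called in all 12 settings run. The other members of these lists did not pass. KRT18 and KRT19 were at 0.921 and 0.955 of control, and CD44 and CAV1 had fold changes of 1.09 and 1.06. The luminal prostate genes KLK3, KLK2 and FOLH1 were at 0 in all libraries and TMPRSS2 had at most 4 counts in any. Of the leukocyte markers, PTPRC and CD3E were at 0 in all libraries. The summed level of the list, mostly CD68, was 88.9 to 91.2 CPM in control and 47.5 to 49.9 CPM in knockdown libraries. Of the 3 genes of this list that were tested, CD68 and CD79A were lower, at 0.530 and 0.496 of control. LYZ was called higher at low counts, with 4 and 2 in control and 17 and 13 in knockdown libraries. A fibroblast and endothelial list of 8 genes summed to 70.4 and 82.1 CPM in control and 113.3 and 111.5 CPM in knockdown libraries. CDH5 was at 0 in all. Of the 4 genes of this list that were tested, KDR was 2.25-fold and COL1A2 1.52-fold higher. COL1A1 did not pass, at 0.927 of control, and PECAM1 was lower, at 0.601 of control (edgeR adjusted p = 0.0482). The part of any of these markers in the results below was not tested.

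Most of these genes did not pass the test, and those that changed went both ways. Among the 42 tested, 10 were higher, 6 were lower and 26 did not pass at an edgeR adjusted p under 0.05, so 38.1% were called where 36.1% of all 13251 tested genes were called. By direction, 18.2% of all genes were called higher and 17.9% lower. The median log2 fold change was 0.06 for the listed genes and 0.0023 for all genes, and the median absolute value was 0.16 against 0.23. One listed gene, HDAC3, changed by at least 2-fold, whereas 3.87% of all tested genes were called with a change of that size. The 2 groups did not overlap for 25 of the 42 genes, against 67.2% of all genes. A lack of overlap was thus common, and where it is given below it is a description only. The genes were chosen with earlier results of these data known, so these counts describe the list and are no test of it. Without control replicate 1, and likewise without control replicate 2, 5 listed genes were called higher in place of 10.

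**Figure D1:**
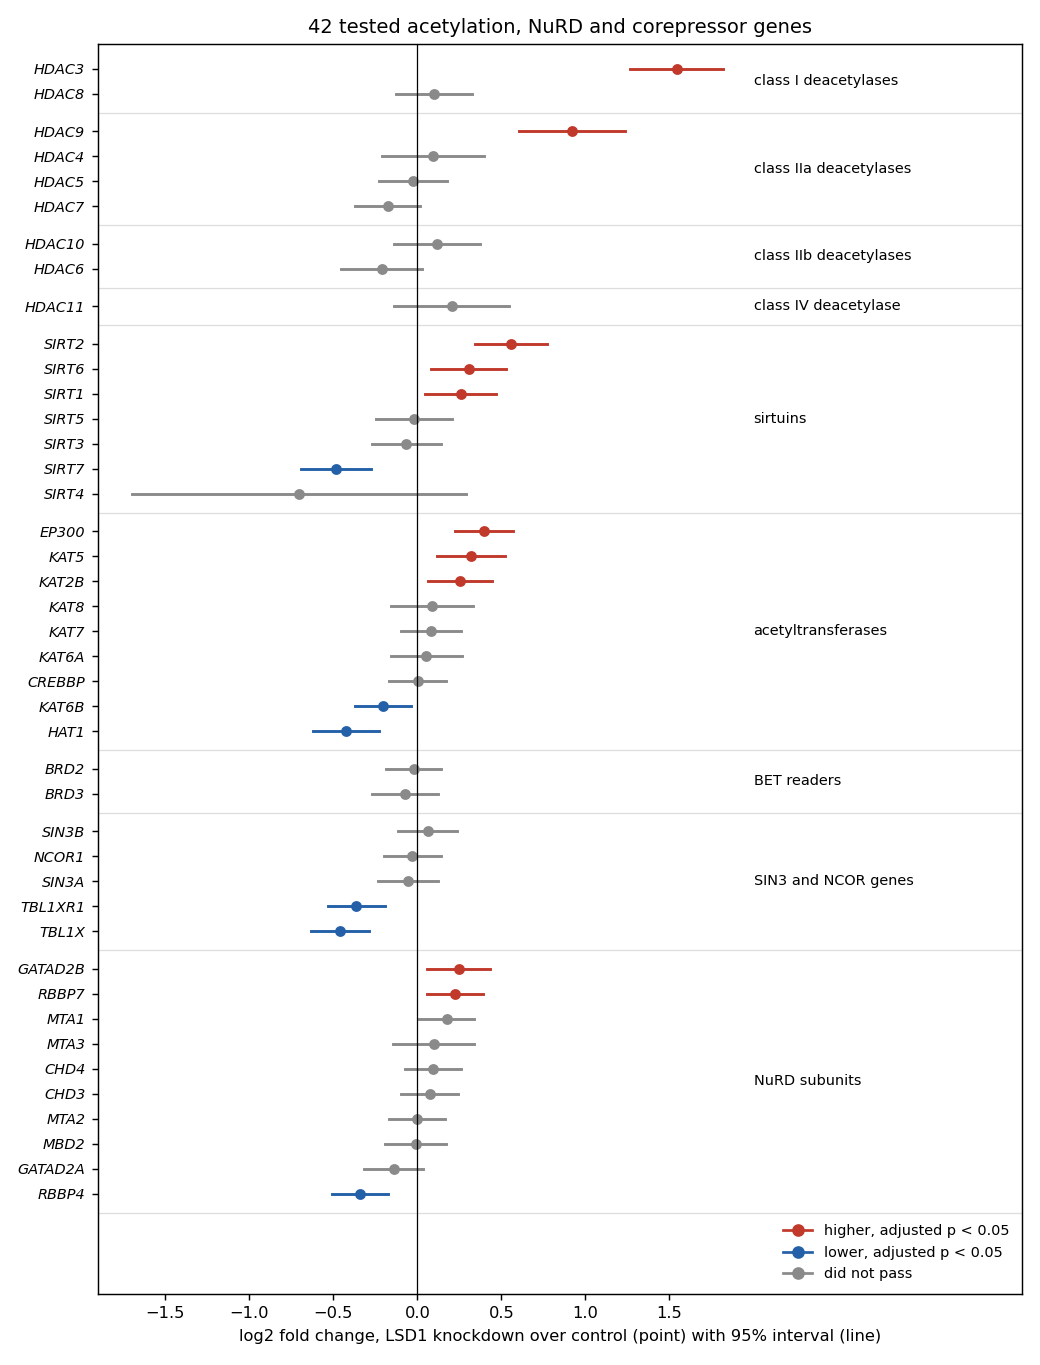
Log2 fold change of LSD1 knockdown over control for each of the 42 tested genes (point) with its 95% interval from the edgeR quasi-likelihood fit (line), grouped by role. The 10 genes called higher are red, the 6 called lower are blue and the 26 that did not pass are grey; HDAC3 at 1.54 and HDAC9 at 0.92 stand furthest to the right, and the interval of SIRT4 is the widest.

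The largest change was that of HDAC3, the class I deacetylase that is the catalytic subunit of NCOR complexes. It was at 8.13 and 9.71 CPM in the control libraries and at 27.2 and 24.9 CPM in the knockdown libraries, from 101, 118, 332 and 322 counts. Both knockdown libraries lay far above both control libraries. The group means were 8.92 ± 1.12 and 26.01 ± 1.62 CPM (SD, n = 2 each). The rise was 2.92-fold, with a 95% interval of 2.41-fold to 3.53-fold and a log2 fold change of 1.54 ± 0.136 (SE; edgeR quasi-likelihood adjusted p = 1.14e-10). A rise at least as large was called for 89 genes, or 0.672% of those tested. AC008781.1, an antisense transcript in GENCODE, shares 426 exonic bases with HDAC3. HDAC8, the other class I gene of the list, which acts on cohesin as well as histones, was at 28.2 and 26.7 CPM in control and 31.7 and 27.1 CPM in knockdown libraries. Those groups overlapped, and the interval of the HDAC8 fold change ran from 0.914 to 1.25.

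HDAC3 also holds a short sequence that was picked on these data. The shares of called genes given below describe that choice and are no test of the sequence. Genes with and without it were not matched for transcript length or level. In an earlier look at these data the letters TACTTCG and, 1 base along, ACTTCGA were picked after fold changes were seen, as were GCGTACA and, shifted likewise, CGCGTAC. Genes with any of them in the sense strand of the coding sequence or 3′ UTR numbered 1976, of which 31.7% were called higher and 11.8% lower, whereas the other searched genes had 15.9% higher and 19.1% lower. They occur in 15.1% of 13065 searched transcripts and in 7 of the 42 listed genes. TACTTCG and ACTTCGA overlap by 6 letters, and the 8 letters TACTTCGA that join them occur in 1.65% of searched transcripts. Of the genes with these 8 letters, 43.7% were called higher and 9.77% lower, against 17.9% and 18.2% of the others. HDAC3 is the listed gene that holds these 8 letters, in its coding sequence, in exon 13 of the GENCODE transcript (GRCh38, chr5:141625755-141625762, minus strand). Sites of 6 of these genes are shown 5′ to 3′ with 10 bases on each side, because the carriers include the largest rise and also genes that did not pass; capitals mark the matching letters.
HDAC3: ctatagtgaaTACTTCGAgtactttgcc
SIRT1: gaaggaaaacTACTTCGcaactatacc
HDAC4: gttttctgcaGCGTACAgaattgttgc
HDAC6: ctccagtgtcACTTCGAagcgaaatat
CHD3: gaggatgaagACTTCGAtgaacgtcct
CHD4: gtggaatctgACTTCGAtgatgccagt

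HDAC3, SIRT1 and GATAD2B were called higher, and HDAC4, HDAC6, CHD3 and CHD4 did not pass. HDAC3 was called in all 12 settings run, SIRT1 and GATAD2B in 6 each. The SIRT1 letters lie in exon 5 (GRCh38, chr10:67906863-67906869, plus strand), those of CHD3 in exon 26 (chr17:7905145-7905151, plus strand) and of CHD4 in exon 8 (chr12:6600632-6600638, minus strand), all in coding sequence. The HDAC6 letters cross an exon junction in the coding sequence, and those of HDAC4 are in the 3′ UTR, in exon 27 (chr2:239051356-239051362, minus strand). Of the listed genes without these letters, 7 were higher and 6 lower, and some of these calls were likewise lost in other settings. Since the letters were chosen on these data, the match is a description, and its part in the rise of HDAC3 was not tested.

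HDAC9 was the second largest rise. It is a class IIa deacetylase, a family with weak catalytic activity of its own that shuttles between cytoplasm and nucleus and works with MEF2 factors. HDAC9 was at 6.999 and 7.814 CPM in control and at 14.3 and 13.8 CPM in knockdown libraries, with no overlap. The fold change was 1.89 with an interval of 1.52 to 2.36 (edgeR adjusted p = 1.68e-05). All 9 RefSeq rows of HDAC9 gave a knockdown to control ratio between 1.75 and 1.96, although rows of one gene count many of the same reads. The other class IIa genes did not pass. HDAC4 was at 14.15 and 21.55 CPM in the knockdown libraries, further apart than the control values of 15.6 and 17.9 CPM. HDAC5 and HDAC7 had fold changes of 0.982 and 0.885, with intervals from 0.853 to 1.13 and from 0.775 to 1.01.

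Among the class IIb genes, HDAC6, the cytoplasmic tubulin deacetylase, had a fold change of 0.863 (0.731 to 1.02) and HDAC10, a polyamine deacetylase, one of 1.085 (0.909 to 1.295). Neither passed the test. HDAC10 shares 2763 exonic bases with MAPK12 on the same strand in the GENCODE annotation, so its counts are uncertain. HDAC11, the class IV enzyme, was at 7.32 and 7.65 CPM in control and 8.83 and 8.42 CPM in knockdown libraries; these did not overlap, but the adjusted p was 0.37 (edgeR). HDAC3 and HDAC9 were thus the genes called among the 9 zinc-dependent deacetylases on the list (22.2%, beside 36.1% of all tested genes). HDAC1 and HDAC2, which were not on the list, had log2 fold changes of 0.08 and -0.15 and did not pass.

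Called sirtuins numbered 4 of 7 (57.1%, beside 36.1% of all tested genes), with 3 higher and 1 lower. SIRT2, a mostly cytoplasmic deacetylase of tubulin and of histone H4, was at 25.02 and 25.99 CPM in control and at 35.9 and 39.1 CPM in knockdown libraries. The groups were well apart, with a 1.47-fold rise (edgeR adjusted p = 8.85e-05). SIRT7, a nucleolar sirtuin that acts on histone H3, went the other way, from 45.2 and 46.9 CPM to 30.1 and 35.6 CPM, a 1.40-fold fall (edgeR adjusted p = 0.000302). SIRT7 shares 105 exonic bases with MAFG, which did not pass (log2 fold change 0.09).

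SIRT6 and SIRT1, nuclear deacetylases of histone H3 and of transcription factors, rose by less. SIRT6 went from 25.1 and 25.0 CPM to 32.6 and 29.4 CPM, and SIRT1 from 40.3 and 33.0 CPM to 42.5 and 45.2 CPM. Neither pair of groups overlapped, but the SIRT1 control libraries were further from each other than control replicate 1 was from the knockdown libraries. The edgeR adjusted p was 0.0272 for SIRT6 and 0.0498 for SIRT1. The SIRT1 call was lost without control replicate 2 (log2 fold change 0.12, edgeR adjusted p = 0.526) or knockdown replicate 2 (0.21, 0.191). That of SIRT6 was lost without control replicate 1 (0.31, edgeR adjusted p = 0.09), control replicate 2 (0.30, 0.0871) or knockdown replicate 1 (0.22, 0.231).

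The mitochondrial sirtuins showed no called change. SIRT3, the main mitochondrial deacetylase, and SIRT5, which removes succinyl and malonyl groups, had fold changes of 0.956 (0.830 to 1.10) and 0.986 (0.843 to 1.15), and their groups overlapped. SIRT4 had 12 and 12 counts in control and 6 and 9 in knockdown libraries, a log2 fold change of -0.70 with an interval of -1.70 to 0.29. At such counts a change of this size was not detectable (edgeR adjusted p = 0.275).

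Among 9 tested acetyltransferases, 3 were called higher and 2 lower (55.6% called, beside 36.1% of all tested genes). EP300, the p300 coactivator that acetylates histone H3 at enhancers, was at 114.0 and 128.6 CPM in control and 158.4 and 160.8 CPM in knockdown libraries. Both knockdown values were above both controls, and the rise was 1.32-fold (edgeR adjusted p = 0.000343). CREBBP, its close relative CBP, was at 159.8 and 174.5 CPM in control and 159.1 and 175.6 CPM in knockdown libraries, which is almost the same pair of values. The interval of the CREBBP fold change, 0.890 to 1.13, lies below that of EP300, 1.17 to 1.48; the difference between the genes was not tested.

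HAT1, which acetylates newly made histone H4 before it is placed on DNA, fell from 51.0 and 47.4 CPM to 38.2 and 35.2 CPM, a 1.34-fold fall without overlap (edgeR adjusted p = 0.000827). KAT6B, the MORF acetyltransferase, was at 309.2 and 339.6 CPM in control and 281.4 and 281.8 CPM in knockdown libraries. Its fall of 1.15-fold was the smallest of any called gene here (edgeR adjusted p = 0.0476). This call was lost without control replicate 2 (log2 fold change -0.14, edgeR adjusted p = 0.345), knockdown replicate 1 (-0.21, 0.119) or knockdown replicate 2 (-0.205, 0.128), and without a normalization factor (-0.17, 0.0971). KAT6A, the MOZ paralog of KAT6B, was at 68.1 and 92.1 CPM in the control libraries, and its knockdown values of 78.9 and 87.1 CPM lay between them.

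KAT5 and KAT2B rose modestly. KAT5, the TIP60 enzyme of the NuA4 complex, went from 34.4 and 37.5 CPM to 43.0 and 46.7 CPM (1.25-fold, edgeR adjusted p = 0.0108). KAT2B, the PCAF coactivator, went from 44.3 and 46.2 CPM to 55.1 and 52.8 CPM (1.19-fold, edgeR adjusted p = 0.0318). Neither gene's groups overlapped, which held for 67.2% of all tested genes. The KAT5 call was lost without control replicate 1 (log2 fold change 0.26, edgeR adjusted p = 0.132) or knockdown replicate 2 (0.26, 0.0968), and the KAT2B call without control replicate 1 (0.22, 0.193), control replicate 2 (0.28, 0.0777) or knockdown replicate 1 (0.22, 0.139). KAT5 lies over 1439 exonic bases of RNASEH2C on the opposite strand, and RNASEH2C itself did not pass, with a log2 fold change of -0.15.

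KAT7 and KAT8, MYST family enzymes that act mainly on histones H3 and H4, had fold changes of 1.06 each and did not pass. KAT2A, the GCN5 paralog of KAT2B, was listed at 0 in all 4 libraries, as were 4857 symbols or 21.3% of the table. A count of 0 allows up to 3 counts, or 0.234 to 0.249 CPM, for counting error only, and whether reads of KAT2A could be assigned to its row was not tested.

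**Figure D2:**
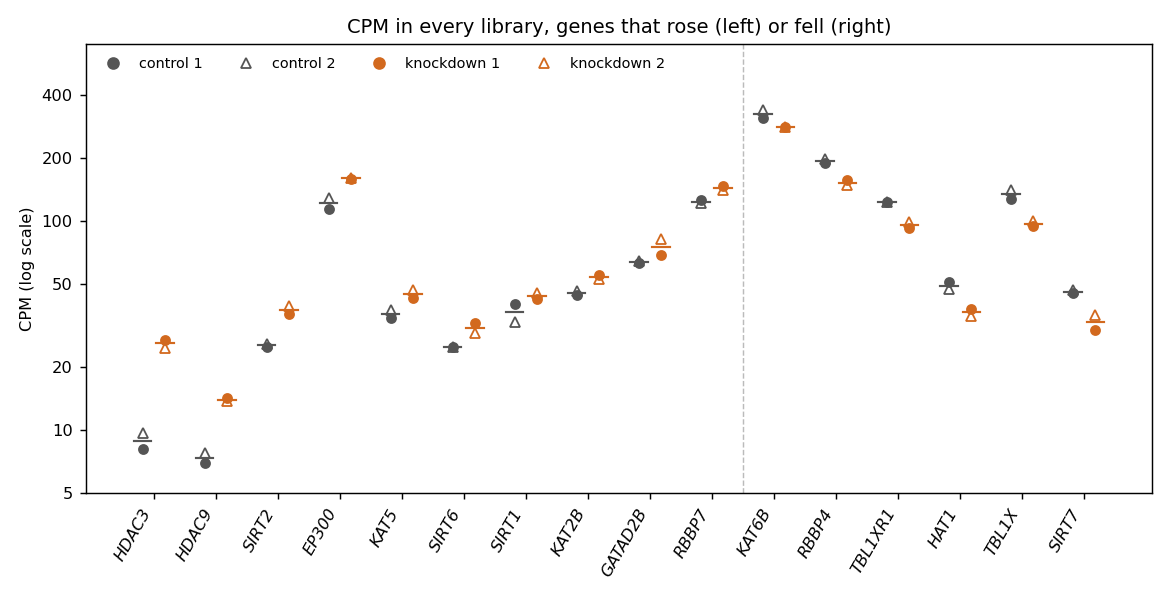
CPM on a log axis in each of the 4 libraries for the 10 genes that rose (left of the dashed line) and the 6 that fell (right), with grey for control, orange for knockdown and a short bar at each group's mean. HDAC3 shows the widest gap, from 8.92 CPM on average in control to 26.01 CPM in knockdown libraries; for SIRT1 the control points are spread and the groups nearly meet.

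The bromodomain readers did not pass the test. BRD2, which recruits transcription factors to acetylated chromatin, was at 362.7 and 363.9 CPM in control and 357.4 and 358.0 CPM in knockdown libraries, with an interval of 0.880 to 1.10 for the fold change. BRD3 ranged from 61.0 to 76.5 CPM in the knockdown libraries, which enclosed both control values. The antisense gene BRD3OS, which shares 1281 exonic bases with BRD3 and was looked up after the overlap was found, fell 1.28-fold (edgeR adjusted p = 0.00446; 0.0804 without control replicate 2), and without strand their shared reads cannot be told apart.

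In the corepressor group the scaffold genes did not pass and both TBL1 genes fell. TBL1X and TBL1XR1 encode WD40 proteins that link NCOR to histones and exchange corepressors on promoters. TBL1X went from 127.3 and 140.5 CPM to 94.4 and 100 CPM. TBL1XR1 went from 122.9 and 123.4 CPM to 93.01 and 98.54 CPM. In each gene both knockdown libraries were below both controls, with falls of 1.38-fold (edgeR adjusted p = 6.33e-05) and 1.29-fold (edgeR adjusted p = 0.000862). All 4 rows of TBL1X gave a ratio of 0.726 to 0.729. The scaffold genes NCOR1, SIN3A and SIN3B had fold changes of 0.979, 0.963 and 1.04, with intervals that together ran from 0.850 to 1.18, and their groups overlapped. HDAC3, the enzyme of the same NCOR complex, was the gene that rose most.

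Most NuRD genes did not pass, with 2 higher and 1 lower of 10 tested (30% called, beside 36.1% of all tested genes). CHD4, the main remodelling helicase, was at 390.0 and 413.8 CPM in control and 418.2 and 439.0 CPM in knockdown libraries, and CHD3, its relative, had a fold change of 1.05. In GENCODE, AC006064.6 shares 5964 exonic bases with CHD4 on the same strand. MTA1, MTA2 and MTA3, the scaffold subunits, had fold changes of 1.13, 0.999 and 1.07. MTA1 had non-overlapping groups and an edgeR adjusted p of 0.0932. MBD2, the methyl-CpG binding subunit, was at 0.994 of control, with an interval of 0.876 to 1.13.

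The histone chaperone subunits RBBP4 and RBBP7, close homologs that bind histone H4 and are shared with SIN3 and other complexes, moved in opposite directions. RBBP4 was at 190.2 and 196.8 CPM in control and 157.5 and 147.8 CPM in knockdown libraries. RBBP7 was at 125.3 and 121.6 CPM in control and 147.3 and 140.8 CPM in knockdown libraries. RBBP4 fell 1.27-fold (edgeR adjusted p = 0.00114) and RBBP7 rose 1.17-fold (edgeR adjusted p = 0.032), each with groups apart. The RBBP7 call was lost without control replicate 1 (log2 fold change 0.24, edgeR adjusted p = 0.0881), control replicate 2 (0.20, 0.162) or knockdown replicate 1 (0.18, 0.168). RBBP4 shares 1706 exonic bases with SYNC on the opposite strand, and SYNC fell 1.27-fold too (edgeR adjusted p = 0.00505; 0.0663 without control replicate 1 and 0.106 without knockdown replicate 2), so that without strand the 2 genes cannot be told apart over that stretch. Of the 3 RBBP4 rows, that matched to a GENCODE transcript of 1674 bases gave a ratio of 0.835. The row matched to 1788 bases gave 0.789, as did the row used, which was matched to 7943 bases. These last rows had nearly the same counts, 2363, 2391, 1924 and 1913 beside 2364, 2392, 1926 and 1914. How many of the counted reads lay in the stretch shared with SYNC was not tested.

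GATAD2B, the p66-beta subunit, was at 63.0 and 64.4 CPM in control and 68.9 and 82.0 CPM in knockdown libraries, a 1.19-fold rise (edgeR adjusted p = 0.0384). The knockdown libraries differed more from each other than knockdown replicate 1 did from the controls, and without knockdown replicate 2 the log2 fold change was 0.11 (edgeR adjusted p = 0.483). The call was also lost without control replicate 1 (0.23, 0.15) or control replicate 2 (0.26, 0.0878). GATAD2A, the p66-alpha paralog, was at 263.1 and 259.4 CPM in control and 215.2 and 259.2 CPM in knockdown libraries, and did not pass.

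Counts of related genes were also set against each other within each library, where no scaling between libraries enters. Gene lengths differ, so such a ratio is read only for how it moved between groups. The RBBP4 count per RBBP7 count was 1.52 and 1.62 in control and 1.07 and 1.05 in knockdown libraries. EP300 per CREBBP went from 0.713 and 0.737 to 0.996 and 0.916. GATAD2A per GATAD2B went from 4.18 and 4.03 to 3.13 and 3.16, with the knockdown libraries closer to each other in this ratio than in either gene's CPM. The TBL1X to TBL1XR1 ratio was 1.04 and 1.14 in control and 1.015 in both knockdown libraries, a smaller shift, and CHD3 per CHD4 overlapped between groups. HDAC9 per HDAC4 rose from 0.449 and 0.436 to 1.012 and 0.638, and HDAC4 also differed between the knockdown libraries. With 2 libraries against 2 an exact two-sided permutation test cannot give a p below 0.333, so no test was made of these ratios.

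**Figure D3:**
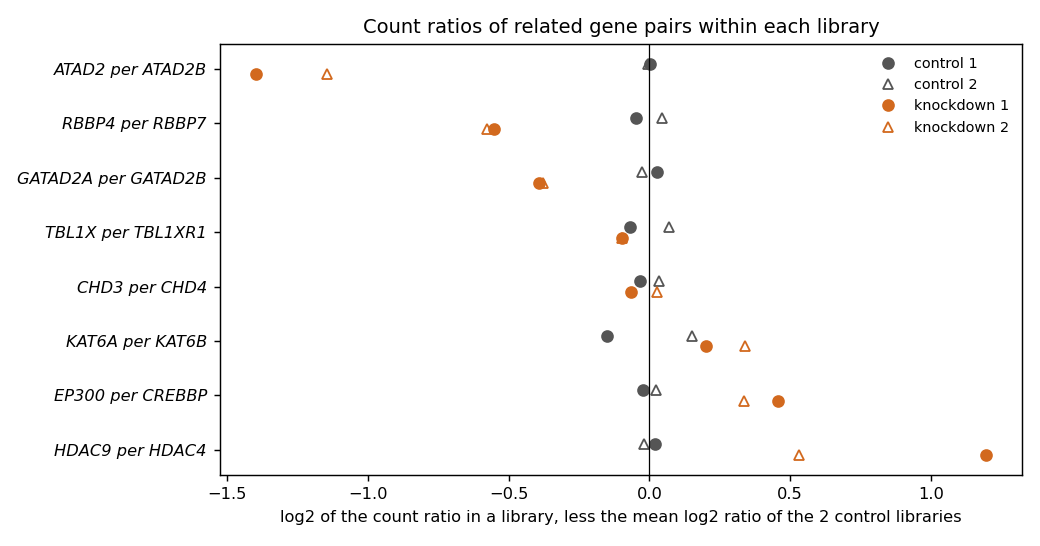
Log2 count ratio of 8 related gene pairs in each library, less the mean log2 ratio of the 2 control libraries (grey, control; orange, knockdown). RBBP4 per RBBP7 sits to the left in both knockdown libraries and EP300 per CREBBP to the right, while CHD3 per CHD4 stays around 0; ATAD2 and ATAD2B come from the wider list of partner genes.

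A second short sequence was looked up in the same way, the 8 letters CTAGAAGA, which were also picked on these data. Of 1064 genes that hold them in the sense strand of coding sequence or 3′ UTR, 8.14% of those searched, 13.6% were called higher and 25.9% lower, against 18.7% and 17.3% of the others. The split was much smaller for its 7-letter parts, CTAGAAG or the overlapping TAGAAGA. Of 4463 genes with either, 17% were higher and 19.7% lower, against 19% and 17.2% of the others. Either part occurs in 34.2% of searched transcripts and in 25 of the 42 listed genes, of which 5 were higher and 5 lower. Of the listed genes with neither part, 5 were higher and 1 lower. Among the listed genes, 6 hold all 8 letters: TBL1X, RBBP4 and KAT6B fell, EP300 and KAT2B rose, and CREBBP did not pass. EP300 and CREBBP carry the letters in exon 10 of each gene, with similar flanks, and are shown because the same letters go with a rise in one and no called change in the other.
EP300: ccagaaagaaCTAGAAGAaaaacgaagg
CREBBP: acaaaaagaaCTAGAAGAaaaacggagg

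The letters are at chr22:41141099-41141106 (plus strand) in EP300 and chr16:3778124-3778131 (minus strand) in CREBBP, in GRCh38. Their part in any of these changes was not tested.

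Partner genes of the same complexes were also examined. A wider list of 97 genes held further readers, acetyltransferase partner subunits, accessory genes of NuRD, SIN3 and NCOR, and genes of acetyl-CoA and NAD supply. Tests were possible for 93, with 9 higher and 14 lower, so 24.7% were called beside the 36.1% of all genes, with a median log2 fold change of -0.03. Without control replicate 2, 9 fell in place of 14.

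Among 51 acetyltransferase partner subunits, 3 rose and 7 fell (19.6% called, beside 36.1% of all tested genes). TRRAP, the large scaffold of the NuA4 and SAGA complexes, rose from 79.2 and 100.7 CPM to 122.3 and 129.9 CPM (edgeR adjusted p = 0.000109). MORF4L2, a subunit of NuA4, fell from 428.7 and 441.9 CPM to 330.8 and 297.1 CPM (edgeR adjusted p = 2.94e-05). MSL2, a ubiquitin ligase of the KAT8 complex, fell by 0.40 on the log2 scale. In 16 SIN3 and NCOR accessory genes, 3 fell and 1 rose (25% called, beside the same 36.1%). The 3 that fell belong to the SIN3 complex: ING2, a reader of methylated histone H3, by 0.73, SAP30 by 0.49 and SUDS3 by 0.29 on the log2 scale (edgeR adjusted p of 3.39e-05, 0.00505 and 0.014). The SAP30 call was lost without knockdown replicate 2 (edgeR adjusted p = 0.09), and that of SUDS3 without control replicate 1 (0.0937) or knockdown replicate 2 (0.13). SINHCAF, listed under its older name FAM60A and also a SIN3 subunit, rose 1.21-fold (edgeR adjusted p = 0.0133; 0.11 without control replicate 2 and 0.0946 without knockdown replicate 1).

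Of the 9 tested NuRD accessory genes, 33.3% were called, beside 36.1% of all tested genes. Of these, 2 rose, ZNF827 by 0.36 and BEND3 by 0.26 on the log2 scale, and ZMYND8 fell by 0.27. All 3 calls were lost on leaving out a library. The edgeR adjusted p was 0.0593 for ZNF827 without control replicate 1 and 0.0736 without knockdown replicate 2, 0.205 for ZMYND8 without control replicate 2 and 0.0659 without knockdown replicate 2, and 0.0843 to 0.239 for BEND3 without any 1 of the 4 libraries. Among the further readers, ATAD2 and ATAD2B, a pair of related bromodomain ATPases, moved apart. ATAD2 went from 99.0 and 103.6 CPM to 68.14 and 66.03 CPM, and ATAD2B from 11.3 and 11.9 CPM to 20.6 and 16.8 CPM. The edgeR adjusted p was 1.77e-06 for ATAD2 and 0.000226 for ATAD2B. Neither pair of groups overlapped, as in 67.2% of all tested genes.

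**Figure D4:**
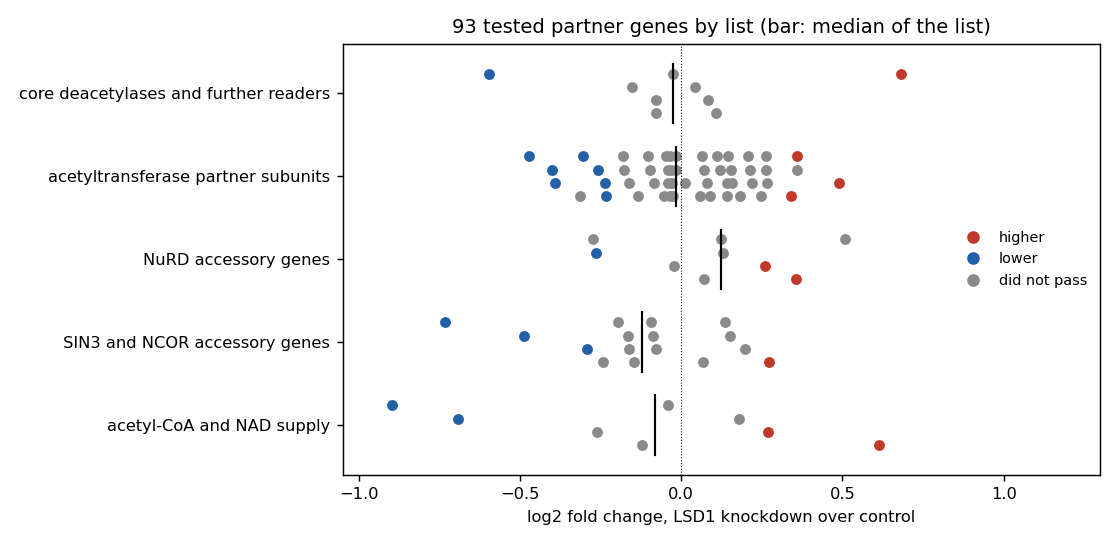
Log2 fold change of knockdown over control for the 93 tested partner genes in 5 lists, each point a gene (red, higher; blue, lower; grey, did not pass) and each bar a list's median. Points fall on both sides of 0 in every list; the largest changes among the first 4 lists are those of ING2 at -0.73 and ATAD2B at 0.68.

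Across the list, 9 of the 16 calls were made in all 12 settings run: HDAC3, HDAC9, SIRT2 and EP300 higher, and SIRT7, HAT1, TBL1X, TBL1XR1 and RBBP4 lower. DESeq2 did not call the other 7, with adjusted p between 0.0567 for KAT6B and 0.229 for SIRT1. Testing without a filter also ended the calls of SIRT1, KAT2B, KAT6B, GATAD2B and RBBP7 (edgeR adjusted p of 0.0566 to 0.0947), summing the rows of each symbol those of SIRT1, KAT2B, KAT6B and GATAD2B (0.0547 to 0.0854), and DESeq2 size factors that of SIRT1 (0.0509). For 25 of the 26 genes that did not pass, all but SIRT4, the 95% interval of the change lay within 1.5-fold in either direction.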

How the data were processed

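The authors deposited raw read counts per RefSeq transcript, 1 table per library, judged from the values, which are whole numbers with differing totals. The submitters' processing notes name TopHat2, HOMER, edgeR, DESeq 1.8.3 and hg19, without saying what each was used for; the sources used here give no counting options and no strand. Of 38767 rows, 37205 were paired with symbols by a RefSeq table (GRCh38.p14) and 471 by GENCODE 29; the 1091 unmatched rows (1.38% to 1.40% of counts) were left out. The row with the highest mean stood for each symbol.

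Counts were filtered with filterByExpr (count of 10, total of 15), TMM-normalized and tested with edgeR 4.0.16 (quasi-likelihood, group as the only term, R 4.3.3) over 13251 genes, with Benjamini-Hochberg adjustment at 0.05. The script was tested on simulated counts. With 2 libraries per group the fit borrows its spread from all genes (biological coefficient of variation 5.96%). The labels do not say that replicates came from separate cultures, so the p-values may measure technical spread. The listed genes, partner genes and short sequences were chosen with earlier results of these data known. Every listed gene was accounted for; those called, or changed by at least 0.5 (log2), are given in every library, and up to 3 called partner genes per list and direction are named. Alternatives were DESeq2 1.42.0 and its size factors, no normalization factor, no filter, 1 CPM, a replicate block, summed rows and leaving out each library. The DESeq2 test was run without filterByExpr. Exon overlaps and sequences come from GENCODE 29 (GRCh38), not hg19. The design text of the series speaks of a knockout, and the sample labels, which were followed, of RNAi.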

Additional observations from a re-analysis of the deposited data

How the results depend on the processing

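DESeq2 called 1448 of all genes higher and 1541 lower, against 2412 and 2375 with edgeR. It called 4 listed genes higher in place of 10 and 6 partner genes lower in place of 14. The DESeq2 run did not use the filter on low counts of the edgeR fit, so the test and the genes entered both differed. Without a filter on low counts, 6 listed genes were called higher; more genes are then tested. Leaving out a library left 5 to 7 listed genes higher and 5 to 6 lower, 6 to 9 partner genes higher and 9 to 11 lower, and 1768 to 1991 of all genes higher and 1891 to 1998 lower, with fewer samples in each fit. The KDM1A value stayed between -3.73 and -3.68 on the log2 scale over 11 alternatives. Without a normalization factor 2759 of all genes were higher and 2091 lower.

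The labels number replicates 1 and 2 in both groups but do not say that a number pairs samples. Deviations from the group means correlated at 0.0913 between same-numbered libraries and at -0.0913 between crossed numbers, over 13251 genes. With 2 libraries per group the deviations mirror each other, so the crossed value is fixed by the other. The value alone does not settle whether the numbers pair samples. With the replicate number as a block, 10 listed genes were called higher and 6 lower, with none of the 16 calls lost, 2634 of all genes were higher and 2639 lower, and KDM1A had a log2 fold change of -3.72. The 2 libraries per group limit all tests. None of the 16 called genes changed direction under the 11 alternatives, whereas 17 of the 26 that did not pass had the other sign under at least 1 of them, so no direction is read from those.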

Other observations

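Genes that supply the substrates of these enzymes changed in both directions. Of 8 genes of acetyl-CoA and NAD supply, 2 rose, 2 fell and 4 did not pass (50% called, beside 36.1% of all tested genes). ACSS2, which makes acetyl-CoA from acetate in cytosol and nucleus, was at 63.6 and 68.6 CPM in control and 99.06 and 103 CPM in knockdown libraries, a 1.53-fold rise (edgeR adjusted p = 1.28e-06). ACSS1, its mitochondrial counterpart, went from 8.21 and 8.56 CPM to 4.91 and 4.09 CPM, a 1.86-fold fall (edgeR adjusted p = 0.000363). PDHA1, a subunit of pyruvate dehydrogenase, rose 1.204-fold (edgeR adjusted p = 0.0125; 0.169 without control replicate 2 and 0.0506 without knockdown replicate 1) and NAPRT, which makes NAD from nicotinic acid, fell 1.62-fold. In each of these 4 genes the groups did not overlap, as in 67.2% of all tested genes.

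SALL4, a factor that recruits NuRD and was named after its values were seen, had 0 counts in both controls, and 7 and 6 counts after knockdown, too few to pass the filter.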
